A study of Mus musculus with 71 samples.

Results

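The expression of 9 surface and adaptor genes of T cells was followed through the γδ intraepithelial lymphocytes (IELs) of the small intestine of wild-type (WT) and *Btnl2*-KO mice. They were the CD3 genes *Cd3d*, *Cd3e* and *Cd3g*, the CD8 genes *Cd8a* and *Cd8b1*, the scavenger-receptor family genes *Cd5* and *Cd6*, the glycolipid-anchored surface gene *Thy1* and the adaptor *Lat*. The genes were taken by name, not by their values, and all 9 were found among the 24475 gene identifiers of the bulk table and among the 24495 gene names of the 6 single-cell tables. In every group γδ IELs had been sorted as CD45+ TCRβ− TCRγδ+ cells from the duodenum, jejunum or ileum. *Btnl2*-KO mice carried a LacZ and selection cassette at the *Btnl2* start codon, described as a null allele, on a C57BL/6 background, and were compared with cohoused female WT littermates. *Btnl2* encodes a butyrophilin-like protein of gut epithelium. The mice were 10 weeks old for the bulk libraries and 8 to 10 weeks old for the single-cell libraries per the labels, whereas the study's text gives 1 other age for both assays. There were 22 bulk libraries, with 4 WT and 3 *Btnl2*-KO libraries of the duodenum, 4 and 4 of the jejunum, and 4 and 3 of the ileum, each from cells pooled from 2 mice. The remaining cells of the same samples were pooled over 8 mice per genotype into 1 single-cell library per segment and genotype, so the bulk and single-cell libraries are not independent of each other. With 8 mice per genotype the 3 segments also came from the same mice. No label says which libraries share a pool, so every fit or correlation over several segments treats as independent libraries that share mice.

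The CD3 chains pair with one another and with the T cell receptor and carry its signal into the cell, and LAT is the scaffold that is phosphorylated after the receptor has been engaged. CD8 exists as a homodimer of CD8α chains, which is the usual form on gut IELs and binds the thymus leukemia antigen of epithelial cells, and as a CD8αβ heterodimer, which is the co-receptor of conventional cytotoxic T cells. CD5 and CD6 restrain or tune signalling through the receptor, and THY1 (CD90) is carried by most peripheral T cells of mice but by only some of their IELs.

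The 9 genes lie on 4 chromosomes in GRCm38. *Cd3g* (Entrez 12502, chromosome 9, 44969572-44980431, minus strand), *Cd3d* (12500, 44981786-44987339, plus strand) and *Cd3e* (12501, 44998740-45009627, minus strand) form a cluster, in which *Cd3g* and *Cd3d* are divergent neighbours with 1354 bp between them and *Cd3d* and *Cd3e* are 11400 bp apart. *Thy1* (21838, 44043384-44048579, plus strand) is on the same chromosome. *Cd8b1* (12526, 71322788-71337494) and *Cd8a* (12525, 71373427-71379173) lie on the plus strand of chromosome 6 with 35932 bp between them, and *Cd5* (12507, 10717116-10739002) and *Cd6* (12511, 10789341-10830058) on the minus strand of chromosome 19 with 50338 bp between them. *Lat* (16797, 126363824-126369570, minus strand) is on chromosome 7.

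The promoter windows of the 3 CD3 genes are shown because *Cd3d* and *Cd3g* moved together over the bulk libraries and *Cd3e* did not follow them. Each line gives 250 bases upstream of the start in the RefSeq promoter table (GRCm38.p6), 5′ to 3′ along the gene; for *Cd3e* that start lies slightly inside the gene bounds given above. Capitals mark matches on either strand. The searched letters were CAGGTG for the E-box bound by helix-loop-helix factors. For ETS factors they were GGAAGT. For TCF factors the letters CTTTGA were used. For RUNX factors they were TGTGGT. The last motif, the TATA box, was searched as TATAAA. No matches in the windows shown shared a base.
Cd3g (chr9:44980432-44980681, minus strand): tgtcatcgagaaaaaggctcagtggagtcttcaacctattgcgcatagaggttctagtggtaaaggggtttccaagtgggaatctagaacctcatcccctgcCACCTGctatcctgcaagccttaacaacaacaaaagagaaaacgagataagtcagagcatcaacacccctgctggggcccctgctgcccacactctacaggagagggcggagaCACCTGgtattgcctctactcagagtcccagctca
Cd3d (chr9:44981536-44981785, plus strand): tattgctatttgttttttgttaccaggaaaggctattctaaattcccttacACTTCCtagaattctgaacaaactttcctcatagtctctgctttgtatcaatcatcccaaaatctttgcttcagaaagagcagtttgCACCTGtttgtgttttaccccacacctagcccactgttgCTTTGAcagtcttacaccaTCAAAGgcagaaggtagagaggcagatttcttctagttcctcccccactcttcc
Cd3e (chr9:45009612-45009861, minus strand): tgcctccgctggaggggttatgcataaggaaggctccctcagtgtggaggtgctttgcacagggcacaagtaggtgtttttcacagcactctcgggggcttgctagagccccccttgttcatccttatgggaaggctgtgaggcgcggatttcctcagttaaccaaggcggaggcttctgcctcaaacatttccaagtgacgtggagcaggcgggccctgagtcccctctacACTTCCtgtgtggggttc
The *Cd3g* window held 2 E-box matches, the *Cd3d* window 1 E-box, 1 ETS and 2 TCF matches, and the *Cd3e* window 1 ETS match. Over all 32851 promoter windows in the RefSeq table, 17.2% held the E-box letters, 19.7% the ETS letters and 13.8% the TCF letters, so each match is common and is given as a description of these windows. The RUNX and TATA letters, held by 14.0% and 12.4% of all windows, had no match in the windows of *Cd3d*, *Cd3e*, *Cd3g*, *Cd8a*, *Cd5* and *Lat*. GC content was 51.6% for *Cd3g*, 41.2% for *Cd3d* and 57.2% for *Cd3e*.

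The single-cell tables held 23994 barcodes, of which 23569 passed filters of at least 500 genes and at most 10% mitochondrial counts, with median depths of 4877 to 5468 unique molecular identifiers (UMIs) per cell. Pairs of libraries shared 19 to 31 barcodes. Totals of the bulk libraries ran from 13444958 to 30029485 counts. *Btnl2* itself had 0 to 2 counts in the *Btnl2*-KO libraries and 37 to 327 in the WT libraries, as labelled. Markers of other cells were mixed in bulk. CD4 T cell *Cd4* ran from 0.0585 to 4.16 counts per 1000000 (CPM), B cell *Ms4a1* and *Cd79a* reached at most 0.665 and 2.28 CPM, and of the myeloid genes *Adgre1* was at 0 in 16 libraries and *Csf1r* in 11. Other listed genes were present in every library, with *Cd79b* at 97.1 to 180 CPM, *Itgax* at 67.3 to 209, *Cd68* at 2.07 to 8.71 and the NK gene *Klrb1c* at 12 to 43.6, and epithelial *Krt8* ran from 32.3 to 2480 CPM and *Lgals4* from 29.1 to 1690 CPM. TCR constant and variable genes were not analysed here. In bulk RNA, fewer cells expressing a gene and less of its RNA per cell cannot be told apart.

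Per molecule, *Cd3g* and *Cd3e* were the most abundant of the 9 genes in single γδ IELs, followed by *Cd8a* and *Cd3d*, then *Lat* and *Thy1*, with *Cd8b1*, *Cd6* and *Cd5* far below. Summed over the cells of a library, *Cd3g* gave 3647 to 3884 UMIs per 1000000 UMIs (UMI CPM), *Cd3e* 3300 to 3460, *Cd8a* 1685 to 1833 and *Cd3d* 1307 to 1396. *Lat* gave 344.2 to 437.0 and *Thy1* 176.7 to 258.4 UMI CPM. *Cd8b1* gave 16.67 to 33.65, *Cd6* 12.37 to 27.78 and *Cd5* 1.124 to 3.847 UMI CPM. The ranges of *Cd3g* and *Cd3e*, of *Cd8a* and *Cd3d*, of *Lat* and *Thy1*, and of *Cd6* and *Cd5* did not overlap over the 6 libraries, and those of *Cd8b1* and *Cd6* did.

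*Cd3e* was detected in 99.54 to 99.86% of the cells of a library, *Cd3g* in 99.49 to 99.87% and *Cd3d* in 98.57 to 99.23%. *Cd8a* was detected in 86.93 to 90.08%, *Lat* in 73.13 to 83.24%, *Thy1* in 28.43 to 38.77%, *Cd6* in 4.372 to 9.51%, *Cd8b1* in 3.35 to 4.984% and *Cd5* in 0.4858 to 1.272%. The same genes were counted in 44 cells with at least 20 UMIs over 11 epithelial genes, a class chosen after the values were seen. The median depth of this class was 34117 UMIs, against 5092 in the other cells. UMIs lay in few of its cells, with 48 of *Cd3e* in 2 of 6 cells of the WT jejunum. Doublets were not called, so free RNA and a T cell under the same barcode cannot be told apart here. In these epithelial-type cells *Cd3e* and *Cd3g* were each found in 22.7%, *Cd8a* in 18.2%, *Cd3d* in 15.9%, *Lat* in 11.4% and *Thy1* in 9.09%, all below the shares in the γδ IELs despite the greater depth. *Cd8b1*, *Cd5* and *Cd6* were found in 0 of the 44, which allows a level of up to 1.832 UMI CPM (3 counts of 1637724 UMIs). The *Cd8b1* and *Cd6* levels of every library lay above that limit, and the *Cd5* level of the *Btnl2*-KO duodenum (1.124) lay below it.

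Detection of *Cd8a* fell into cells with none and cells with many. Cells with 0 UMIs made up 9.92 to 13.1% of a library, cells with 1 UMI only 2.45 to 3.76%, and cells with 6 or more UMIs 64.7 to 69.1%. For *Cd8b1* 95 to 96.7% of cells were at 0. Among the cells with any *Cd8b1* UMI, 59.5 to 76.2% held 2 or more. In the WT duodenum, for example, 40 of the 142 *Cd8b1* cells had 1 UMI and 18 had 6 or more.

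**Figure D1:**
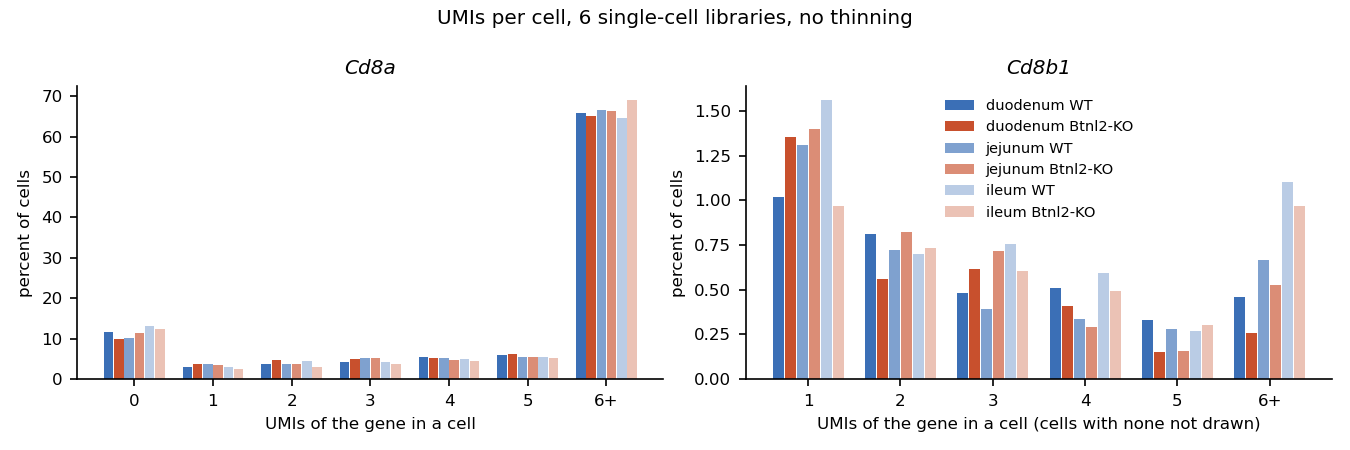
Percent of cells (y axis) by the number of UMIs of *Cd8a* (left) and *Cd8b1* (right) in the cell (x axis, 6+ for 6 or more), without thinning. Bars stand for the 6 single-cell libraries, blue for WT and red for *Btnl2*-KO, paler from duodenum to ileum; cells with no *Cd8b1* (95 to 96.7%) are not drawn. For *Cd8a*, bars at 1 UMI (2.45 to 3.76%) are lower than those at 0 (9.92 to 13.1%) in every library.

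To set *Cd8a* with and without *Cd8b1* at matched depth, each cell was thinned at random to 1500 UMIs, which kept 3920 of 3931 cells of the WT duodenum, 3892 of 3911 of the *Btnl2*-KO duodenum, 3571 of 3589 and 3769 of 3779 of the jejunum, and all cells of the ileum. Cells with *Cd8a* and no detected *Cd8b1*, the chain of the homodimer alone, were the largest class in all 6 libraries, with shares of 77.40% and 80.24% in the WT and *Btnl2*-KO duodenum, 78.61% and 77.74% in the jejunum, and 75.73% and 77.68% in the ileum. Cells with neither gene made up 17.88 to 21.28%. Cells with both genes numbered 64 and 63 in the duodenum, 71 and 70 in the jejunum and 87 and 100 in the ileum (WT and *Btnl2*-KO), and cells with *Cd8b1* alone 9 to 24 per library.

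Of the *Cd8a* cells, 2.066% (95% exact binomial interval 1.595 to 2.630) also held *Cd8b1* in the WT duodenum, 2.467% (1.932 to 3.102) in the WT jejunum and 3.002% (2.411 to 3.690) in the WT ileum. In *Btnl2*-KO mice the shares were 1.977% (1.523 to 2.523), 2.333% (1.823 to 2.939) and 2.695% (2.198 to 3.269) in the same order. In both genotypes the ileum had the highest share and the duodenum the lowest at this depth, but the order changed at 1000 UMIs, where the jejunum was lowest (1.75% in WT and 1.56% in *Btnl2*-KO mice), and when cells with other cell types' genes were left out. Some of those genes, such as *Epcam*, *Cd79b* and *Itgax*, were found in many of the sorted cells, so the cells left out need not be other cell types. The intervals of the 3 segments overlapped within each genotype, and the WT and *Btnl2*-KO intervals overlapped in every segment. Without thinning the shares were 3.974%, 4.035% and 5.206% in WT and 3.520%, 4.117% and 4.369% in *Btnl2*-KO mice. With 1 library per group these differences have no replicate check, and intervals cover counting error only. The summed level of *Cd8b1* in UMI CPM was likewise highest in the ileum, at 33.65 (31.19 to 36.25) in WT and 28.6 (26.65 to 30.66) in *Btnl2*-KO cells. The duodenum gave 21.24 (19.35 to 23.27) and 16.67 (14.95 to 18.54). These counting intervals did not overlap within a genotype, but they treat UMIs of the same cell as independent. For the unthinned share of all cells with *Cd8b1*, the intervals of ileum and duodenum overlapped in *Btnl2*-KO mice (3.517 to 4.675% and 2.808 to 3.962%). In WT mice they did not (4.306 to 5.734% and 3.051 to 4.244%).

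*Thy1* and *Cd6* rose in cells with both CD8 genes. Cells with *Cd8a* and *Cd8b1* (455 over the 6 libraries) were compared with cells with *Cd8a* alone (18315), after UMIs had been summed per class within each library and fitted with edgeR with the library as a block. Of 9500 genes tested, 24 were higher and 53 lower at a fold change above 1.5 and a Benjamini-Hochberg false discovery rate (FDR) below 0.05, which is 0.811% of genes called in either direction, 0.253% called higher and 0.558% called lower. Of the 6 members that could be tested (*Cd8a* and *Cd8b1* set the classes and *Cd5* had too few UMIs), 2 were called, both higher.

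In WT libraries *Thy1* gave 364.6, 422.5 and 398.5 UMI CPM in *Cd8a*+ *Cd8b1*+ cells of the duodenum, jejunum and ileum, against 149.9, 171.2 and 201.1 in *Cd8a*+ *Cd8b1*− cells. In *Btnl2*-KO libraries it gave 423.3, 314.3 and 440.0 against 128.9, 143.1 and 153.8. The classes did not overlap, and the log2 fold change of *Thy1* was 1.25 ± 0.105 (SE; edgeR FDR 4.47e-29; higher in 6 of 6 libraries). *Cd6* gave 72.92, 37.56 and 45.98 UMI CPM in the *Cd8b1*+ cells of WT libraries and 42.33, 47.62 and 46.67 in those of *Btnl2*-KO libraries, against 22.19, 23.51 and 23.48 and then 9.606, 11.6 and 15.14 in the cells without *Cd8b1*. Its log2 fold change was 1.39 ± 0.328 (edgeR FDR 0.00448; 6 of 6 libraries) but rested on 33 UMIs in the *Cd8b1*+ cells. The *Cd6* call was lost when cells were thinned to 1000 UMIs (FDR 0.0758) and when 2 or more UMIs of *Cd8b1* were required (FDR 0.243), and *Thy1* stayed called under both. *Thy1* and *Cd6* were both called with each library left out in turn (FDR of *Cd6* 0.00414 to 0.0395). *Lat* was higher in 6 of 6 libraries, with 612.9 against 396.7 UMI CPM overall and a log2 fold change of 0.55 ± 0.081 (edgeR FDR 1.05e-08), which is below the fold minimum. *Lat* passed that minimum and was called with DESeq2 (0.643), with RLE scaling (0.63), at 2500 UMIs (0.616) and without thinning (0.634). It was not called at 1000 UMIs (0.443) or with 2 or more UMIs of *Cd8b1* (0.368). The CD3 genes gave nearly equal levels in both classes, with log2 fold changes of −0.07 for *Cd3d*, −0.11 for *Cd3e* and −0.04 for *Cd3g* (FDR 0.859, 0.389 and 0.892).

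Among called genes, 16 were higher in every library (0.168% of those tested) and 45 lower in every library (0.474%). The first of these by fold change included surface receptors and adaptors. Higher in *Cd8b1*+ cells were the inhibitory adaptor *Sit1* (log2 fold change 1.71), the receptor for interleukin 7 *Il7r* (1.51), *Ms4a4b* (1.70), *Ms4a6b* (0.93), *Unc5cl* (1.75), the Ras activator *Rasgrp2* (1.46), the actin-severing gene *Scin* (1.08) and the galectin *Lgals1* (0.95). Lower were the immunoreceptor adaptor *Tyrobp* (−1.86; 320.4 against 1143 UMI CPM), the natural killer receptors *Klra3* (−2.36) and *Klrb1a* (−2.27), *Trf* (−2.24), *Gm156* (−2.16), *Srbd1* (−2.02), *Arap3* (−1.72) and *Bcl2l15* (−1.72). *Frmd5* and *Klk1b27* had 0 UMIs in *Cd8b1*+ cells against 310 and 295 UMIs in the larger class, and were at least 2.56-fold and 2.44-fold lower (floor of 3 counts over the summed class).

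Of the 25 listed genes of receptor signalling and co-stimulation, 22 were tested, 4 were called higher and 2 lower. The adhesion receptor *Cd2* (2.26), the phosphatase *Ubash3a* (2.02), *Sit1* and the thymocyte selection gene *Themis* (0.88) were higher, *Cd2* and *Ubash3a* in 5 of 6 libraries. The signal-transducing Fc receptor γ chain *Fcer1g* (−1.39; 965.7 against 2442 UMI CPM) and *Cd7* (−0.67; 4932 against 7410) were lower in every library. The median of the 22 was 0, against −0.09 over all genes tested. Of 11 resident and cytolytic genes tested 3 were lower (*Tyrobp*, *Fcer1g* and the chemokine *Xcl1*, −0.82), with a median of −0.14, and of 4 circulating-type genes 1 (*Il7r*) was higher, with a median of 0.50. Of 4 epithelial genes tested *Epcam* was lower (−1.19), none of the 2 B cell, 1 myeloid and 2 NK and ILC genes was called, and *Cd4*, *Cd40lg* and *Foxp3* together were found in 0% of the *Cd8b1*+ cells of every library. Without thinning these 3 genes were found in 0 to 1.613% of *Cd8b1*+ cells and in 0.3558 to 0.6538% of the larger class. The 3 are used as genes of CD4 T cells, so their shares cannot show αβ T cells that carry the CD8αβ heterodimer.

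**Figure D2:**
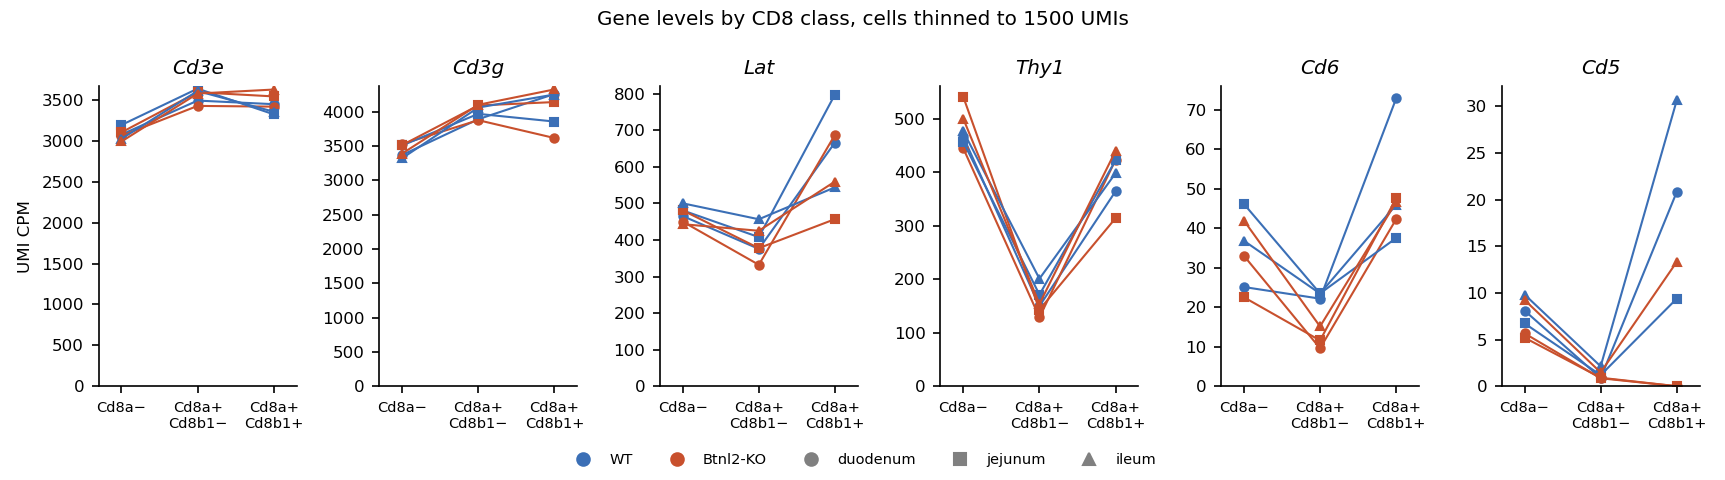
UMI CPM (y axis, from 0) of *Cd3e*, *Cd3g*, *Lat*, *Thy1*, *Cd6* and *Cd5* in cells with no *Cd8a*, with *Cd8a* alone and with *Cd8a* and *Cd8b1* (x axis), after thinning to 1500 UMIs; each line is 1 library, colored by genotype, with a marker shape per segment. *Thy1* runs from 128.9 to 201.1 in cells with *Cd8a* alone and from 314.3 to 440.0 in cells with both genes.

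Cells without *Cd8a* carried more *Thy1*, *Cd5* and *Cd6* and less *Cd3e* and *Cd3g*, given here as a description without a test. Among cells with *Cd3e*, 11.51% (10.52 to 12.55) of the WT duodenum had no *Cd8a* UMI, 10.13% of the WT jejunum and 12.68% of the WT ileum, with 9.841%, 11.19% and 12.18% in *Btnl2*-KO mice. No order of genotypes was common to the 3 segments. *Cd8a*-free cells were somewhat shallower, with median depths of 4506 to 5268 UMIs against 4923 to 5490 in *Cd8a* cells, and 4 to 12 of them per library were epithelial-type cells. *Thy1* was detected in 62.24 to 73.93% of the *Cd8a*-free cells and in 24.76 to 34.84% of the *Cd8a* cells.

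Without thinning, *Thy1* gave 507 to 651 UMI CPM in *Cd8a*-free cells against 141 to 219 in *Cd8a* cells, a median log2 difference of 1.54 over the 6 libraries (range 1.22 to 1.95). *Cd5* gave 7.44 to 13.5 against 0.485 to 3.2 UMI CPM and *Cd6* 29.1 to 35.3 against 10.1 to 27.2, median log2 differences of 2.77 and 0.67, each higher in 6 of 6 libraries. Without thinning the *Cd8a*-free ranges of all 3 genes lay wholly above those of the *Cd8a* cells. *Cd3e* gave 2453 to 2902 against 3359 to 3544 and *Cd3g* 2716 to 3157 against 3728 to 3977, lower in 6 of 6, and *Lat* went no single way without thinning (3 of 6 higher). The circulating-type genes were higher (1.28, 6 of 6) and the resident and cytolytic genes lower (−1.69, 6 of 6), while *Cd4*, *Cd40lg* or *Foxp3* was found in 0.655 to 2.79% of *Cd8a*-free cells against 0.341 to 0.682% of *Cd8a* cells, the epithelial genes were also higher (2.12) and the myeloid genes lower (−1.28); their part in the *Thy1* difference was not tested. After thinning, the differences of *Thy1* and *Cd5* were 1.61 and 2.46 and that of *Cd6* was 0.91, with ranges of *Cd6* that overlapped (22.54 to 46.18 against 10.25 to 24.15 UMI CPM), while that of the epithelial genes was 0.39. *Lat* was then higher in *Cd8a*-free cells in 6 of 6 libraries, with a median log2 difference of 0.24 (range 0.05 to 0.41).

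Within a library, joint detection followed the same lines. All pair values are descriptions over the 3589 to 4647 cells of each library, which share depth and library. *Cd5* and *Cd6*, neighbours on chromosome 19, were found in the same cell 6.707 to 9.630 times as often as their separate shares would give. *Cd8b1* with *Cd6* was found 1.975 to 2.793 times as often and *Cd8b1* with *Thy1* 1.539 to 2.121 times as often. *Cd6* with *Thy1* was found 1.827 to 2.633 times and *Cd5* with *Thy1* 2.029 to 2.962 times as often, all in 6 of 6 libraries. *Cd8a* went the other way with 3 of the genes, again in all 6. It stood at 0.4673 to 0.6118 times the product of the shares with *Cd5*, 0.7987 to 0.9542 with *Cd6* and 0.8303 to 0.8977 with *Thy1*. *Cd8a* with *Cd8b1* stood above the product in all 6, at 1.045 to 1.100. *Cd8a* was found in 86.93 to 90.08% of the cells of a library, so that ratio had little room to rise further. Correlations of counts after thinning were 0.209 to 0.269 for *Cd3e* with *Cd3g*, 0.097 to 0.156 for *Cd3e* with *Cd8a*, 0.006 to 0.069 for *Cd3d* with *Cd3e* and −0.241 to −0.174 for *Cd8a* with *Thy1*. Without thinning the first 3 were 0.672 to 0.722, 0.517 to 0.551 and 0.478 to 0.533, and *Cd8a* with *Thy1* was −0.251 to −0.182, close to its thinned values. *Cd3d* with *Cd3g* was at 0.025 to 0.061 after thinning and 0.394 to 0.484 without it, below *Cd3e* with *Cd3g* in both settings.

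In the bulk libraries levels were compared per kilobase of exon, and the order differed in part from that in single cells. In the WT duodenum *Thy1* lay beside *Cd8b1* and *Cd6*, and *Cd3d* above *Cd8a*. There *Cd3g* gave 4562 CPM per kb, *Cd3d* 828.7, *Cd3e* 823.5, *Cd8a* 609.8 and *Lat* 199.0, and *Cd8b1* (20.2), *Thy1* (17.85), *Cd6* (12.43) and *Cd5* (0.9904) were lower. *Cd3d* and *Cd3e* traded places between segments (539.1 and 1196 CPM per kb in the WT jejunum), and *Cd8b1*, *Cd6* and *Thy1* ran from 8.317 to 28.35 CPM per kb over the WT segments.

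*Cd8a*, the chain of both CD8 forms, was the steadiest. Its CPM were 1668, 1725, 2095 and 2152 in the WT duodenum, 2021, 1953, 2508 and 1774 in the WT jejunum and 2021, 1451, 1772 and 2055 in the WT ileum. The *Btnl2*-KO libraries gave 2020, 2281 and 1728, then 2202, 2427, 2310 and 1624, and then 2520, 2120 and 1901. All 6 groups overlapped. *Cd8b1*, the chain of the heterodimer alone, gave 20.7, 16.6, 44.4 and 38.1 CPM in the WT duodenum, 44.9, 33.3, 42.6 and 13.9 in the WT jejunum and 44.4, 27.5, 49.7 and 46.5 in the WT ileum. In *Btnl2*-KO libraries it gave 31.1, 14.0 and 30.1, then 41.7, 50.8, 23.6 and 38.97, and then 59.1, 34.6 and 43.4. Its span within the WT jejunum was wider than that between the 6 group means (25.07 to 45.69 CPM).

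*Cd3g* ran from 2998 to 8648 CPM over the 22 libraries and *Cd3d* from 742.1 to 2391, each highest in 1 *Btnl2*-KO jejunum library and lowest in 1 *Btnl2*-KO ileum library. *Cd3e* ran from 846.4 to 1923 CPM and was highest in the WT jejunum (mean 1749 ± 182.4, SD, n = 4). *Lat* ran from 149.5 to 387.2 CPM. *Thy1* ran from 12.4 to 75.1 CPM, both in *Btnl2*-KO ileum libraries, and its WT values were lowest in the jejunum at 17.5, 14.3, 16.5 and 14.1 CPM. *Cd6* ran from 16.2 CPM in a *Btnl2*-KO duodenum library to 93.8 in a WT jejunum library, and *Cd5* from 0.679 in the *Btnl2*-KO duodenum to 8.09 in the *Btnl2*-KO ileum.

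**Figure D3:**
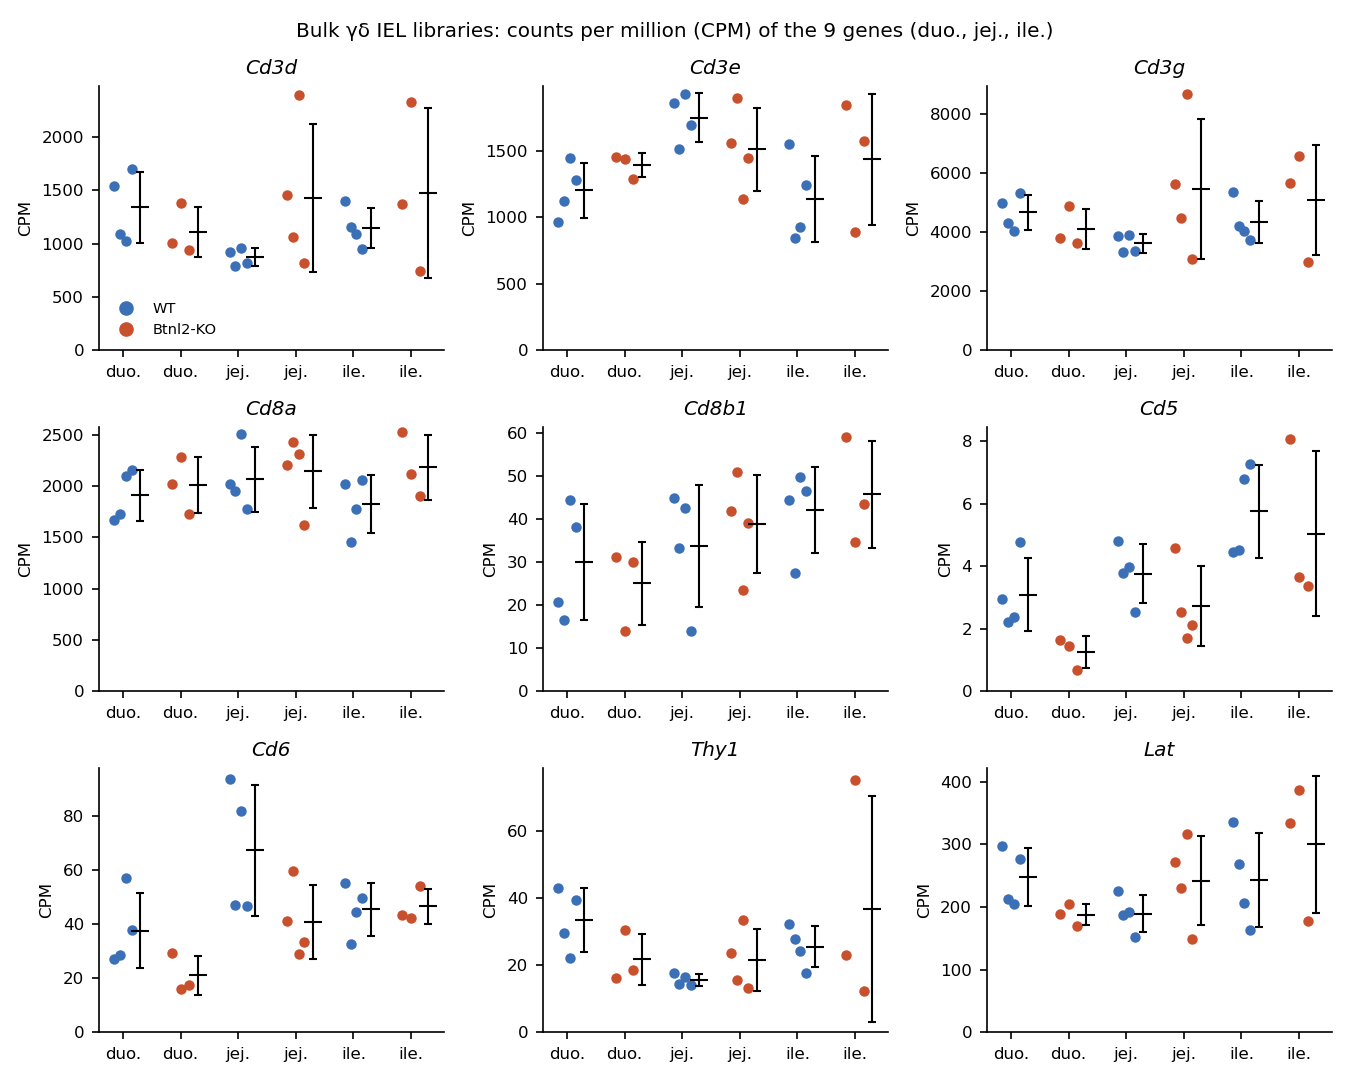
CPM (y axis, each panel from 0) of the 9 genes in the 22 bulk libraries by segment (x axis), WT in blue and *Btnl2*-KO in red; points are libraries and black marks the mean ± SD of a group of 3 or 4. *Thy1* in the WT jejunum (14.1 to 17.5) lies below the WT duodenum (22.2 to 43.0), and *Cd5* in the *Btnl2*-KO duodenum (0.679 to 1.64) below the WT duodenum (2.23 to 4.79).

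The effect of *Btnl2* loss on these genes was asked segment by segment and over the segments together. None of the 9 genes was called in any of these 4 edgeR comparisons, where called genes made up 0.00789% (duodenum), 0.00794% (jejunum), 0.0% (ileum) and 0.015% (together) of those tested. DESeq2 also called 0 of the 9 in each, beside 0.0315%, 0.0159%, 1.75% and 0.015% of the same genes. Limma-voom, run here with quality weights, called 0 except for *Cd3e* in the ileum, 1 of 9 members beside 9.58% of genes there and 0.00789%, 0.00794% and 0.0225% in the other comparisons. At an unadjusted p below 0.05 there were 4, 2, 0 and 2 members respectively, beside 2.07%, 6.39%, 8.79% and 1.59% of all genes.

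In the duodenum these 4 were *Cd5*, *Cd6*, *Thy1* and *Lat*, whose fitted values were all lower with *Btnl2* deleted, and none of them passed correction. *Cd5* gave 2.96, 2.23, 2.39 and 4.79 CPM in WT libraries and 1.64, 1.45 and 0.679 in *Btnl2*-KO libraries, and the groups did not overlap (log2 fold change −1.29 ± 0.454, SE; edgeR FDR 0.997). *Cd6* gave 27.2, 28.6, 57.3 and 37.7 CPM in WT and 29.5, 16.2 and 17.6 in *Btnl2*-KO libraries, which overlapped through 1 library (−0.84 ± 0.294; edgeR FDR 0.997). *Lat* also did not overlap, with 297, 213, 204 and 276 against 189, 204 and 170 CPM (204.5 as the lowest WT and 204.4 as the highest *Btnl2*-KO value; −0.39 ± 0.163), and *Thy1* differed by −0.62 ± 0.271, both at an edgeR FDR of 0.997. Of all genes tested in the duodenum, 3.01% had groups that did not overlap. With the balance of short and long genes described below as a covariate, *Cd6* differed by −1.091 with an FDR of 0.896.

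In the jejunum the 2 genes were *Cd3d*, with higher values in *Btnl2*-KO libraries, and *Cd6*, with lower values, and neither passed correction. *Cd3d* gave 918, 791, 964 and 814 CPM in WT and 1454, 1059, 2391 and 818 in *Btnl2*-KO libraries (0.77 ± 0.321; edgeR FDR 0.583). *Cd6* gave 93.8, 47.1, 81.9 and 46.7 CPM in WT and 41.4, 59.8, 29.2 and 33.3 in *Btnl2*-KO libraries (−0.68 ± 0.291; edgeR FDR 0.583). Both pairs of groups overlapped, and 3.32% of all genes had jejunal groups that did not. With the same covariate the difference was 0.184 for *Cd3d* and −0.391 for *Cd6*. In the ileum no member had an unadjusted p below 0.05 or groups that did not overlap (6.89% of all genes), and *Cd6* gave 55.4, 32.5, 44.6 and 49.6 CPM in WT against 43.5, 42.5 and 54.1 in *Btnl2*-KO libraries (0.06 ± 0.221). Epithelial genes differed between the ileal groups, with a median log2 difference of −1.40 over 12 genes, 8 of them with an unadjusted p below 0.05; their part in the ileal values of the members was not tested. Over the 3 segments together *Cd6* differed by −0.51 ± 0.188 and *Cd5* by −0.61 ± 0.246 (edgeR FDR 1 for both), in a fit that counts segments of the same mice as separate libraries. For either interaction of genotype and segment edgeR, DESeq2 and limma-voom called 0 members and 0.0% of genes, with 0.88 ± 0.443 for *Cd6* (ileum minus duodenum, unadjusted p = 0.0623, edgeR, beside 5.73% of genes with an unadjusted p below 0.05) and 1.0 ± 0.464 for *Cd3d* (jejunum minus duodenum, unadjusted p = 0.0431, edgeR, beside 4.84% of genes).

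In the single-cell libraries, which came from the same samples, *Cd6* was lower in *Btnl2*-KO cells in all 3 segments. It gave 23.72 UMI CPM (95% exact Poisson interval 21.72 to 25.85) in the WT and 12.37 (10.89 to 13.99) in the *Btnl2*-KO duodenum, 27.78 (25.46 to 30.25) and 16.64 (14.92 to 18.51) in the jejunum, and 27.61 (25.38 to 29.98) and 19.37 (17.77 to 21.07) in the ileum. The counting intervals, which treat UMIs of the same cell as independent, did not overlap in any segment. The log2 differences were −0.94, −0.74 and −0.51. The share of cells with *Cd6* at 1500 UMIs was 3.010% against 1.901% in the duodenum, 3.668% against 1.937% in the jejunum and 3.502% against 2.819% in the ileum. In the class with *Cd8a* alone *Cd6* was found in 83 of 3034 WT and 37 of 3123 *Btnl2*-KO cells of the duodenum, 87 of 2807 and 44 of 2930 of the jejunum, and 83 of 2811 and 74 of 3610 of the ileum. Cells with *Cd8b1* and cells without *Cd8a* showed no common direction for *Cd6*, with 42.33 against 72.92, 47.62 against 37.56 and 46.67 against 45.98 UMI CPM in the former and 33.05 against 25.14, 22.54 against 46.18 and 41.98 against 36.86 in the latter (*Btnl2*-KO against WT, duodenum to ileum). There was 1 library per group, so no test was made.

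Of the other genes, the CD3 genes and *Cd8a* differed least between the genotypes in single cells. *Cd3d*, *Cd3e*, *Cd3g* and *Cd8a* differed by −0.03 to 0.05 on the log2 scale in every segment, with *Cd3d* at −0.01 in the jejunum. *Lat* differed by −0.10, −0.08 and −0.07, *Thy1* by −0.20, 0.02 and −0.16, and *Cd8b1* by −0.35, −0.04 and −0.23 from duodenum to ileum. *Cd5* differed by −1.29 in the duodenum, on 60 WT and 23 *Btnl2*-KO UMIs, and by 0.07 and −0.02 in the jejunum and ileum. In the duodenum the counting intervals of *Cd5* (2.096 to 3.536 UMI CPM in WT and 0.7128 to 1.687 in *Btnl2*-KO cells), *Cd8b1* (19.35 to 23.27 and 14.95 to 18.54), *Thy1* (197.5 to 209.5 and 171.0 to 182.6) and *Lat* (361.9 to 378.1 and 336.2 to 352.4) did not overlap. Those intervals cover counting error only and treat UMIs of the same cell as independent. *Cd8b1* gave 464 UMIs in 142 WT cells and 341 in 131 *Btnl2*-KO cells of the duodenum. Its unthinned shares of cells with a UMI had overlapping intervals there (3.051 to 4.244% in WT and 2.808 to 3.962% in *Btnl2*-KO cells). For *Cd5*, *Thy1* and *Lat* the intervals of these shares did not overlap.

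**Figure D4:**
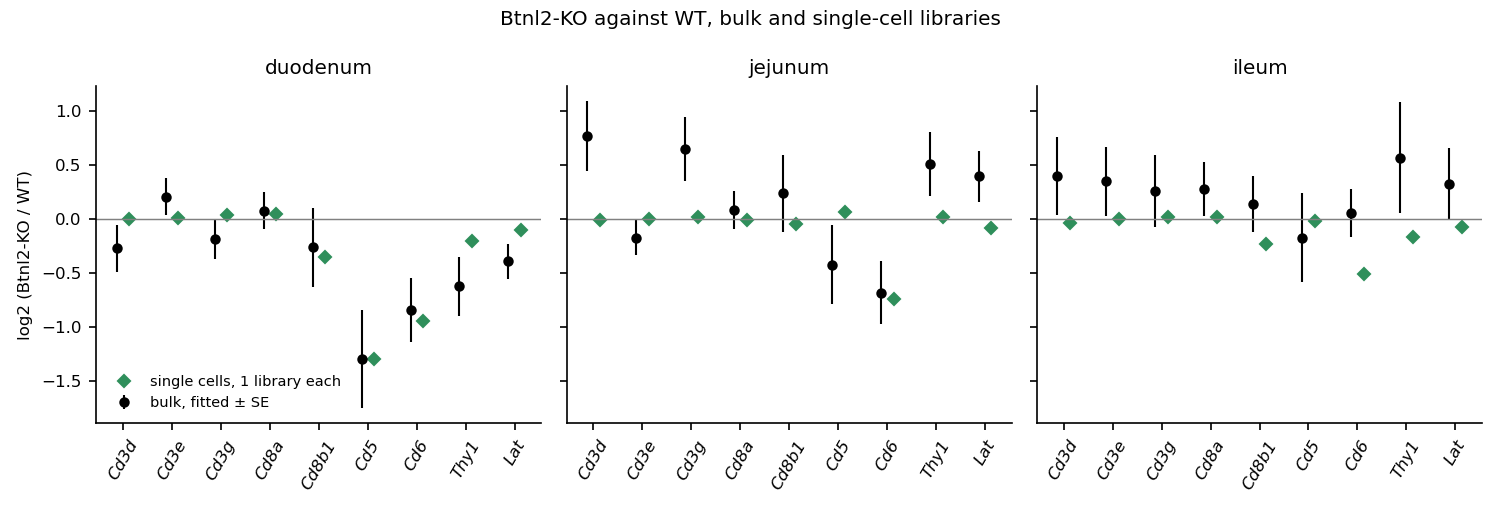
Log2 ratio of *Btnl2*-KO to WT (y axis) for the 9 genes (x axis) in each segment; black points are edgeR log2 fold changes of the bulk libraries with bars of ± 1 SE, green diamonds are ratios of 1 single-cell library to 1 other, without error. *Cd6* is below 0 in the duodenum (−0.84 and −0.94) and jejunum (−0.68 and −0.74), and in the ileum its bulk value is 0.06 and its single-cell value −0.51.

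Segments were compared within WT mice next. Against the duodenum, *Cd6* rose and *Thy1* and *Cd3d* fell in the jejunum, 3 of 9 members beside 22.5% of all genes called (10.4% higher and 12.1% lower in the jejunum). *Thy1* was 22.2 to 43.0 CPM in the duodenum and 14.1 to 17.5 in the jejunum (log2 fold change −1.11 ± 0.219, SE; edgeR FDR 0.00324). *Cd3d* was 1028 to 1701 CPM against 791 to 964 (−0.63 ± 0.184; edgeR FDR 0.0191), and *Cd6* 27.2 to 57.3 against 46.7 to 93.8 (0.82 ± 0.281; edgeR FDR 0.0373). *Cd3d*, *Cd3e*, *Cd3g* and *Thy1* had groups that did not overlap, as did 34.6% of all genes, with *Cd3e* higher in the jejunum (0.53, FDR 0.055) and *Cd3g* lower (−0.38, FDR 0.087). In 1 fit over all 22 libraries, and with a covariate for the balance of short and long genes described below, 0 members were called. *Thy1* was called with each WT library left out in turn. It was the only member called without WT duodenum replicate 1 or 4, *Cd6* was not called without WT duodenum replicate 2 or WT jejunum replicate 1 or 3, and *Cd3d* was not called without WT jejunum replicate 2 or 4.

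From jejunum to ileum *Thy1* rose again, to 17.7 to 32.1 CPM (0.73 ± 0.218; edgeR FDR 0.0221), and *Cd3e* fell from 1517 to 1923 CPM to 846 to 1550 (−0.60 ± 0.198; edgeR FDR 0.0337), 2 of 9 members beside 21.9% of all genes (11.4% higher and 10.5% lower in the ileum). The *Thy1* groups did not overlap, nor did those of 32.4% of all genes. Here too 0 members were called in 1 fit over all 22 libraries or with that covariate. Neither member was called without WT ileum replicate 2 or WT jejunum replicate 4, *Thy1* was not called without WT ileum replicate 1, and *Cd3e* was not called without WT ileum replicate 3 or WT jejunum replicate 1 or 3. Between ileum and duodenum 0 of 9 members were called by edgeR, DESeq2 or limma-voom, beside 2.11%, 3.86% and 2.76% of genes, and all 9 overlapped, beside 6.26% of genes that did not. *Cd5*, at 4.47 to 7.29 CPM in the ileum and 2.23 to 4.79 in the duodenum, differed by 0.92 ± 0.311 (edgeR FDR 0.201) and was the only member of the 9 with an unadjusted p below 0.05, beside 12% of genes.

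*Btnl2*-KO mice had 0 members called between segments, where 0.00775% (ileum against duodenum), 0.0% (jejunum against duodenum) and 0.0% (ileum against jejunum) of genes were called. At an unadjusted p below 0.05 edgeR gave 3, 1 and 0 members in these comparisons, beside 6.76%, 7.53% and 2.87% of genes, and DESeq2 called 0 in each, beside 1.06%, 0.426% and 0.0155% of genes, as did limma-voom, beside 0.434%, 1.81% and 0.00775%. *Cd5*, *Cd6* and *Cd8b1* did not overlap between *Btnl2*-KO ileum and duodenum, beside 15.9% of all genes, with log2 differences of 2.00 ± 0.557, 1.15 ± 0.309 and 0.87 ± 0.357 (edgeR FDR 0.458, 0.443 and 0.706), all higher in the ileum. Between jejunum and duodenum *Cd6* differed by 0.95 ± 0.293 (edgeR FDR 0.623), and *Cd5* by 1.12 ± 0.521 with groups that did not overlap, beside 13.6% of all genes. Ileum and jejunum had no member with groups apart, beside 3.18% of all genes.

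A feature of the libraries moved with several of these genes. The balance of short and long genes, taken as the mean log2 CPM of genes under 1500 bp of exon minus that of genes over 4000 bp, was 0.046 to 0.292 in the WT jejunum and 0.532 to 1.044 in the WT duodenum, with 0.664 to 0.926 in the WT ileum. The WT jejunum thus stood apart from the other WT segments. In *Btnl2*-KO libraries it was 0.597 to 0.775, −0.002 to 1.075 and −0.056 to 0.880 from duodenum to ileum. Over the 22 libraries the log2 CPM of *Thy1* followed the balance with Pearson's r = 0.77 and Spearman's rho = 0.86 (permutation test, adjusted p of r 0.00018 over the 9 genes), *Cd3d* with 0.72 and 0.77 (permutation, adjusted p 0.00057), *Cd3g* with 0.64 and 0.62 (permutation, adjusted p 0.0025) and *Lat* with 0.55 and 0.54 (permutation, adjusted p 0.013). *Cd3e* ran against it with r = −0.77 and rho = −0.86 (permutation, adjusted p 0.00018), and *Cd6* with −0.62 and −0.68 (permutation, adjusted p 0.0034). By exon length *Cd3e* (1462 bp), *Cd3g* (1023 bp) and *Lat* (1245 bp) are short genes themselves, and *Cd3e* alone of them ran against the balance. *Cd3d* (1617 bp), *Thy1* (1878 bp) and *Cd6* (3032 bp) are neither short nor long by these limits. *Cd8a* (−0.19), *Cd8b1* (−0.26) and *Cd5* (−0.01) had no relation that passed (permutation, adjusted p 0.45, 0.32 and 0.98).

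These relations held without the 2 libraries farthest from the median balance (r of 0.74, 0.72, 0.65, 0.58, −0.77 and −0.59 for *Thy1*, *Cd3d*, *Cd3g*, *Lat*, *Cd3e* and *Cd6*) and within the groups of segment and genotype (0.78, 0.80, 0.77, 0.66, −0.66 and −0.61). With the balance as a covariate, 0 members were called in the WT jejunum against either neighbour, and genes called fell from 2900 to 0 against the duodenum and from 2822 to 18 against the ileum; *Cd6* (−0.765, jejunum against duodenum), *Cd3e* (0.400) and *Thy1* (−0.074, both ileum against jejunum) then had the opposite sign. Since the WT jejunum does not overlap the other WT segments in balance, segment and balance cannot be told apart in that fit. In single cells, *Thy1* was 217.9 UMI CPM in the WT jejunum and 203.4 in the WT duodenum, with 1 library each. *Cd3d* was 1351 and 1310 there, so both lacked the bulk direction, whereas *Cd6* had it at 27.78 and 23.72. From WT jejunum to WT ileum *Cd3e* went from 3451 to 3368 UMI CPM and *Thy1* from 217.9 to 258.4, both in the bulk direction.

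**Figure D5:**
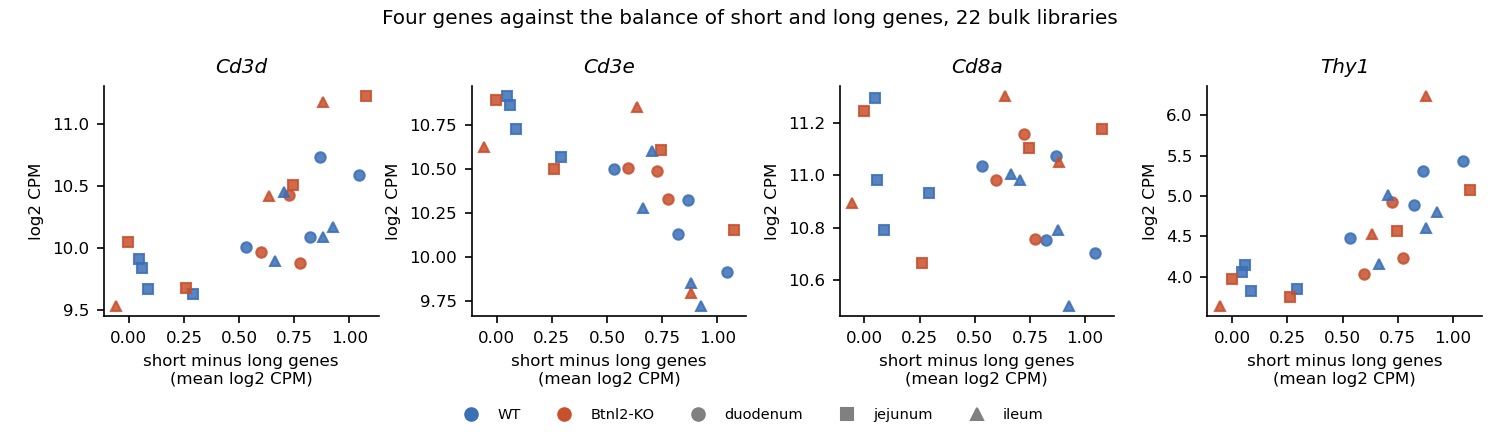
Log2 CPM (y axes) of *Cd3d*, *Cd3e*, *Cd8a* and *Thy1* against the balance of short and long genes (x axes, difference of mean log2 CPM) in the 22 bulk libraries, WT in blue and *Btnl2*-KO in red, with a marker shape per segment. *Thy1* (r = 0.77) and *Cd3d* (0.72) rise with the balance, *Cd3e* (−0.77) falls and *Cd8a* (−0.19) shows no such relation.

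The members also moved with each other over the 22 bulk libraries, in 36 pairs of log2 CPM. *Cd3d* and *Cd3g*, the divergent neighbours shown above, had r = 0.96 and rho = 0.95 (permutation test, adjusted p of r 7.2e-05), with 0.95 after the 2 farthest libraries were left out and 0.96 within groups. *Cd3d* with *Thy1* (0.89 and 0.91), *Cd3d* with *Lat* (0.86 and 0.85), *Cd3g* with *Lat* (0.86 and 0.92), *Thy1* with *Lat* (0.80 and 0.78) and *Cd3g* with *Thy1* (0.78 and 0.83) followed, which are the genes that rose with the balance. *Cd3e*, the third CD3 gene, did not follow *Cd3d* (−0.44, permutation, adjusted p 0.10) or *Cd3g* (−0.28, permutation, adjusted p 0.32) and ran against *Thy1* (−0.64 and −0.64; permutation, adjusted p 0.0061). Between single cells the order was reversed. Thinned counts of *Cd3g* followed *Cd3e* (0.209 to 0.269) more closely than *Cd3d* (0.025 to 0.061), which had fewer UMIs. *Cd8b1* followed *Cd6* (0.62 and 0.72; permutation, adjusted p 0.0082; 0.76 within groups) and *Cd5* (0.58 and 0.62; permutation, adjusted p 0.017), and *Cd5* followed *Cd6* (0.59 and 0.51; permutation, adjusted p 0.016; 0.27 within groups). *Cd8a* and *Cd8b1* had r = 0.35 (permutation, adjusted p 0.28).

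The ratio of *Cd8b1* to *Cd8a* in bulk was 1.52% ± 0.521 (SD, n = 4) in the WT duodenum, 1.60% ± 0.597 (n = 4) in the WT jejunum and 2.29% ± 0.379 (n = 4) in the WT ileum. In *Btnl2*-KO mice it was 1.30% ± 0.601 (n = 3), 1.85% ± 0.592 (n = 4) and 2.09% ± 0.394 (n = 3). By library, the WT duodenum gave 1.244, 0.9597, 2.121 and 1.771% and the WT ileum 2.196, 1.897, 2.807 and 2.265%, which overlapped. The WT ileum exceeded the WT duodenum by 0.621 on the log2 scale (exact 2-sided permutation test, p = 0.0571, 70 arrangements, smallest possible 0.0286; adjusted p 0.429 over 10 comparisons). Genotypes differed by −0.292, 0.223 and −0.143 from duodenum to ileum and by −0.07 over the segments together (exact permutation test within segments, p = 0.746). The lowest adjusted p of the 10 comparisons was 0.429. Comparisons within 1 segment or genotype had a smallest possible p of 0.0286 or 0.1, so hardly any outcome could have passed correction, and these p-values say little about whether the ratios differ. The same ratio of UMIs in the single-cell libraries was 1.2%, 1.31% and 2.0% in WT and 0.91%, 1.29% and 1.67% in *Btnl2*-KO cells, highest in the ileum of both genotypes.

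Genes with the pattern most like *Cd8b1* over the 22 libraries, among 12831 genes, were *Ripk3* (r = 0.724), *Wdr55* (0.695), *Crtap* (0.692), *Trpv2* (0.679) and *Serpine2* (0.679). For *Thy1* they were *Ddit3* (0.969), *Ccdc12* (0.963), *2210016L21Rik* (0.961), *Idnk* (0.960) and *Timm10b* (0.959), and for the mean of the 3 CD3 genes *Fbxo6* (0.955), *Lat2* (0.949), *Cela1* (0.948), *Limd2* (0.938) and *Coro1a* (0.936). The likeness was looser for *Cd8b1* than for the other patterns.

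Of the 25 genes of receptor signalling and co-stimulation, none was called between genotypes in any segment. Between WT jejunum and duodenum 7 were called higher and 2 lower, beside the 10.4% and 12.1% of all genes given above. Among the former were the phospholipase *Plcg1* (log2 fold change 1.46), the phosphatase *Ptpn22* (0.90), *Themis* (0.85), the exchange factor *Vav1* (0.79), *Cd96* (0.78) and the adaptor *Lcp2* (0.72), and the latter were the adaptor *Grap2* (−0.71) and *Fcer1g* (−0.59). Between WT ileum and jejunum *Cd2* (0.87) was higher and 7 were lower, among them *Plcg1* (−1.40), beside 11.4% and 10.5% of all genes, and between WT ileum and duodenum 0 of 25 were called, beside 1.08% higher and 1.03% lower. The 2 comparisons with calls share the jejunum libraries. Of 10 circulating-type genes, 5 were higher in the WT jejunum than in the duodenum (among them *Ccr7* 1.44, *S1pr1* 1.31, *Tcf7* 1.31 and *Satb1* 0.73) and 3 higher in the WT ileum than in the duodenum (*S1pr1* 1.51, *Klf2* 1.31 and *Satb1* 0.93), and *Tcf7* (−0.83) was lower in the ileum than in the jejunum. Of 12 resident and cytolytic genes, the retention integrin *Itgae* (0.88) and the gut-homing receptor *Ccr9* (0.79) were higher in the WT jejunum than in the duodenum and *Xcl1* (−1.25), *Tyrobp* (−1.08), *Ccl5* (−0.66) and *Fcer1g* lower, and of 12 epithelial genes 7 were higher and 1 lower in the WT ileum than in the jejunum. These calls were made on the same libraries as those of the members, so the balance of short and long genes described above stands beside them too.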

How the data were processed

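Bulk and single-cell RNA of sorted γδ IELs was analysed; the 9 genes, the gene lists and the alternatives were chosen with earlier results of these data known. The deposited bulk values are expected counts per gene from RSEM, for which the authors aligned reads in ArrayStudio and counted sense-strand exon reads on a mouse genome (GRCm38 per the labels). They were rounded to whole counts here; 1 column matching no label was not used, and identifiers without a name (0.253 to 3.474% of a library) stayed out. The deposited single-cell counts are UMIs from 5′ libraries, made by the authors with Cell Ranger. Genes needed at least 10 counts in as many bulk libraries as the smallest group of a fit held, or in at least 6 of the 12 single-cell sums. Tests were edgeR 4.0.16 quasi-likelihood fits (TMM; FDR below 0.05 and fold above 1.5, FDR over all genes) in R 4.3.3, checked on simulated data. Genotypes were compared within each segment and with segment as a term, and segments were compared within a genotype. Bulk libraries of a group were treated as replicates, so p-values measure the spread between pools of mice. Doublets were not called. Alternatives were DESeq2 1.42.0, limma 3.58.1 (voom with quality weights), RLE scaling, no filter, no fold minimum, covariates, other thinning and leaving out libraries. Correlations used 100000 permutations, with a smallest p of 1e-05, and the Cd8b1 to Cd8a ratio exact permutation tests on log2(CPM + 1). The 5 most alike genes were taken by Pearson's r, and up to 10 called genes per direction, with 1 sign in all 6 libraries, were named between CD8 classes. Intervals are exact at 95%. Some genes of the lists are not reported here by name.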

Additional observations from a re-analysis of the deposited data

How the results depend on the processing

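No paired analysis was possible because replicate numbers were given in accession order and no label pairs the libraries. Over 2223 alternative values of the members in bulk, 3 called values reversed, 29 calls were lost and 7 gained, and 106 values changed sign with neither value called. With the balance of short and long genes as a covariate (chosen after seeing the data), WT jejunum against duodenum and WT ileum against jejunum each had 0 members called, and Cd6 (−0.765), Cd3e (0.400) and Thy1 (−0.074) reversed. With all 22 libraries in 1 fit these comparisons also had 0, and Btnl2-KO ileum against duodenum had 1 (Cd5). WT ileum against jejunum had 1 member called with DESeq2, with RLE scaling or with the epithelial genes as a covariate and 4 with voom; voom also called 1 member between genotypes in the ileum. Leaving out single libraries gave 1 to 4 members for WT jejunum against duodenum and 0 to 2 for WT ileum against jejunum. Genes called between genotypes in the ileum numbered 0 with edgeR, 221 with DESeq2 and 1207 with voom and its quality weights.

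Between Cd8b1+ and Cd8b1− cells, 1 member was called at 1000 UMIs (Thy1), 4 without thinning (Cd5, Cd6, Thy1 and Lat) and 1 with at least 2 Cd8b1 UMIs (Thy1). Genes higher numbered 9 at 1000 UMIs, 53 at 2500, 88 without thinning, 12 with at least 2 Cd8b1 UMIs, 5 without cells holding 2 or more UMIs of other cell types' genes, and 9 when Epcam was left out of those genes (chosen after seeing the data). The genes of other cell types used in that filter included Epcam, Cdh1, Cd79b and Itgax, each found in many of the sorted cells of every library. Krt8, by contrast, was found in few. Cells left out by the filter therefore need not be other cell types, also when Epcam was left out. Genes lower numbered 100 at 2500 UMIs, 139 without thinning and 14 with DESeq2. The share of Cd8a cells with Cd8b1 followed depth, and its order over segments changed at 1000 UMIs and without cells holding other cell types' genes. At 2500 UMIs it was 2.99%, 3.28% and 3.89% in WT and 2.63%, 3.05% and 3.58% in Btnl2-KO mice, from duodenum to ileum. Without thinning it was 3.97%, 4.04% and 5.21% in WT and 3.52%, 4.12% and 4.37% in Btnl2-KO mice. At 1000 UMIs it was 1.75% and 1.94% in the WT jejunum and ileum and 1.56% in the Btnl2-KO jejunum. Without cells holding other cell types' genes it was 2.70% in the WT duodenum and 2.72% and 3.94% in the Btnl2-KO duodenum and ileum, and with Epcam left out of those genes 2.62%, 1.79% and 3.62% in the Btnl2-KO duodenum, jejunum and ileum. The cause of these shifts was not tested.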
